A study of Drosophila melanogaster with 22 samples.

Results

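Antimicrobial peptide genes encode peptides with which a fly kills bacteria and fungi. A set of 10 such genes of Drosophila melanogaster, chosen by gene identifier with earlier results of these data known, was followed here: the diptericins DptA (FBgn0004240) and DptB (FBgn0034407), the attacins AttA (FBgn0012042), AttB (FBgn0041581), AttC (FBgn0041579) and AttD (FBgn0038530), the cecropin CecA1 (FBgn0000276), metchnikowin (Mtk, FBgn0014865), drosocin (Dro, FBgn0010388) and drosomycin (Drs, FBgn0283461). All 10 were found among the 17101 genes of the count tables, and all 10 passed the filter on low counts in each comparison over all libraries. The 22 Psi-seq libraries were made from heads of unmated females aged 1 day, with 100 heads in each RNA sample. In Exp 2, 4 RNA samples came from flies homozygous for RluA-2 del-FRT, a deletion of the pseudouridine synthase gene RluA-2 that is called RluA-2 here, and 4 from the isogenic w1118 strain that served as control. In Exp 1, 3 RNA samples came from w1118 flies alone. Each RNA sample was poly(A)-selected and split into a CMC library, treated with the reagent that leaves a bulky adduct on pseudouridine (Psi) and stops reverse transcription there, and a mock library handled alike without it. The mutant was 1 deletion line, so that its other background differences from w1118 and the deletion cannot be told apart.

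In flies, the Imd and Toll pathways sense bacterial and fungal cell wall components and end in NF-kappaB factors that switch on antimicrobial peptide genes, mostly in the fat body, with smaller contributions from hemocytes and surface epithelia. Diptericins, attacins and drosocin are known as peptides against Gram-negative bacteria and as targets of Imd, drosomycin as an antifungal peptide and a target of Toll. Cecropins act widely on bacteria, and metchnikowin acts on fungi and Gram-positive bacteria. In unchallenged flies these genes are usually low. In these bulk samples, fewer cells of a type and less RNA per cell cannot be told apart.

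Of the 10 genes, 7 lie on chromosome arm 2R of release 6, in part beside each other. Dro (14745961-14746714), AttA (14747362-14748215) and AttB (14749223-14750165) follow one another on 2R with 647 and 1007 bases between them. DptA (18865765-18866260) and DptB (18867391-18867895) are 1130 bases apart, and AttC (13393705-13394667) and Mtk (15408846-15409113) stand alone on the same arm. Drs lies on 3L (3369556-3369942), and AttD (17625268-17626086) and CecA1 (30210874-30211273) lie on 3R. AttA and AttB are near-identical copies. Reads mapping to more than 1 place were left out of the counts, so the levels of both rest on read pairs that map to one copy only.

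Gene counts summed to between 12035142 and 30701799 per library. Terminations in the span of the RluA-2 gene numbered 12 to 40 in the 4 RluA-2 CMC libraries and 99 to 159 in the 7 w1118 CMC libraries. These numbers were not scaled to depth, and a span does not separate overlapping genes. The source of those left in RluA-2 libraries was not tested. The labelled tissue, head, was borne out by terminations in all 4 neuron and 6 photoreceptor markers, among them elav and the opsin gene ninaE. In Exp 1, replicates 2 and 3 went against their numbers. Over 9017 genes, the deviations of the CMC and mock libraries from their group means correlated at r = -0.31 in replicate 2 and -0.18 in replicate 3, and at 0.65 between CMC 3 and mock 2 and 0.52 between CMC 2 and mock 3. In the other 9 RNA samples the CMC and mock libraries of one number correlated at 0.35 to 0.69. This bears on the comparison of CMC with mock libraries, which is given below with the labelled numbers, with the 2 numbers crossed and without these libraries, and on the test of single positions, which pairs the libraries and is given with and without both replicates.

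Per length of gene, Drs and Mtk were the most abundant members and AttD the least abundant in Exp 2. CPM are a gene's counts divided by the summed gene counts of the library and multiplied by 1000000. On the scale of CPM per kb of gene span, Mtk averaged 149.8 ± 155 and Drs 139 ± 119 in RluA-2 mock libraries (SD, n = 4), and in w1118 mock libraries of Exp 2 Drs averaged 205 ± 91.6 and Mtk 122 ± 91.7 (SD, n = 4). DptB, AttC, DptA and Dro followed in this order in both genotypes. AttD stood last, at 0.42 ± 0.54 in RluA-2 and 2.70 ± 0.96 in w1118 mock libraries of Exp 2, CPM per kb. Few neighbours in the order differed beyond their spread. None of the 9 neighbouring pairs was separated by the SDs of the 2 means in RluA-2 mock libraries, and only AttA and AttD were in w1118 mock libraries of Exp 2. In the w1118 mock libraries of Exp 1 only Mtk and DptB were so separated, at 105 ± 27.9 and 46.5 ± 3.5 CPM per kb (SD, n = 3).

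The members differed widely between RNA samples of one genotype, and they did so together. In the RluA-2 mock libraries, DptA stood at 40.8, 16.4, 0.87 and 6.37 CPM in replicates 1 to 4, against 12.1, 3.97, 6.40 and 25.3 CPM in the w1118 mock libraries of Exp 2. AttC, an attacin encoded apart from the AttA and AttB pair, stood at 117, 35.2, 5.49 and 19.1 CPM in RluA-2 and at 35.8, 21.9, 33.1 and 62.4 CPM in w1118. Drs stood at 121, 26.6, 23.1 and 43.7 CPM in RluA-2 and at 95.8, 51.7, 48.3 and 121 CPM in w1118. For all 3 genes RluA-2 replicate 1 was the highest and RluA-2 replicate 3 the lowest of the RluA-2 libraries, w1118 replicate 4 was the highest of the w1118 libraries, and the genotypes overlapped. Dro had the order of DptA and AttC, at 58.7, 12.7, 2.50 and 7.95 CPM in RluA-2, against 16.8, 10.8, 11.6 and 26.0 CPM in w1118.

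**Figure D1:**
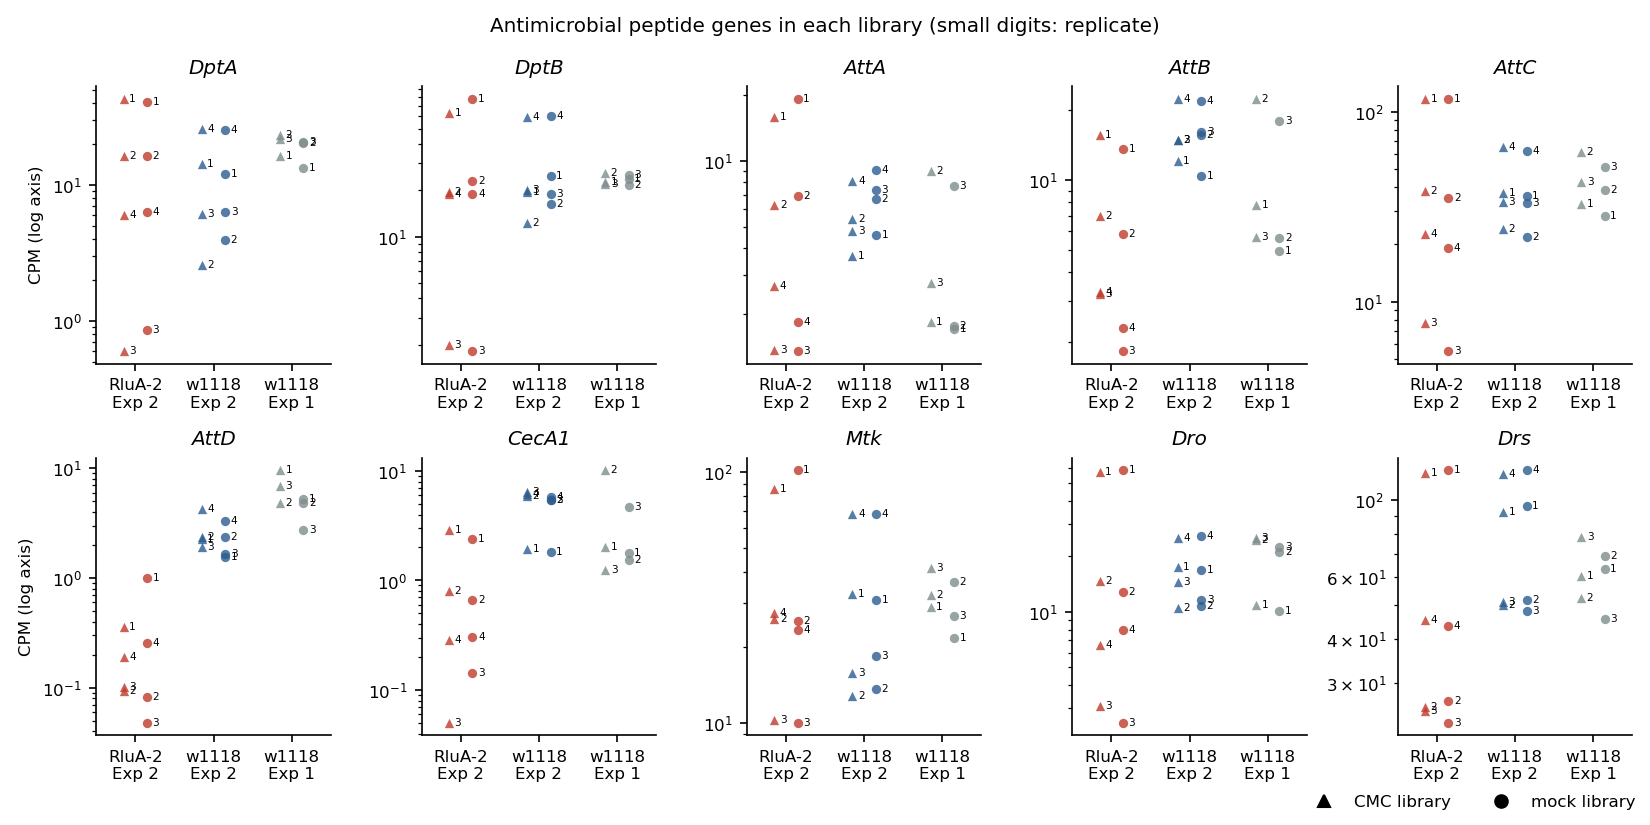
CPM of each of the 10 genes on a log axis in every library, with RluA-2 and w1118 of Exp 2 and w1118 of Exp 1 from left to right, triangles for CMC and circles for mock libraries, and the replicate number beside each point. In the RluA-2 panels replicate 1 lies on top of all 10 genes, and the CMC and mock points of one replicate of Exp 2 lie close to each other.

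RluA-2 replicate 1 held the highest value of all 10 members in both its CMC and its mock library. RluA-2 replicate 3 held the lowest value of 10 of 10 members among the mock libraries and of 9 of 10 among the CMC libraries. Among the w1118 samples of Exp 2, replicate 4 was highest for 9 of 10 members in the CMC and 10 of 10 in the mock libraries. The summed CPM of the 10 genes was 554, 153, 47.2 and 124 in RluA-2 mock libraries, against 234, 149, 167 and 403 in w1118 mock libraries of Exp 2 and 174, 221 and 225 in those of Exp 1. The highest sum exceeded the lowest by 11.7 times among RluA-2, 2.72 times among w1118 of Exp 2 and 1.29 times among w1118 of Exp 1 mock libraries. The CMC libraries of the same RNA gave 520, 155, 53.2 and 133 CPM in RluA-2, so the differences between samples were present in both libraries of each RNA sample. In Exp 2, the members' median absolute log2 ratio of CMC to mock CPM in one RNA sample was between 0.038 and 0.21.

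The spread between replicates was far above that of most genes. The SD of log2(CPM + 0.5) over the 4 RluA-2 mock libraries had a median of 1.47 over the members and ran from 0.67 to 2.11. Over all 9562 genes with a mean of at least 1 CPM, the median SD there was 0.099 and the 90th percentile 0.22. In the w1118 mock libraries of Exp 2 the members' median SD was 0.63, against 0.082 for all genes, and in those of Exp 1 it was 0.44, against 0.14. All 10 members exceeded the 90th percentile in the CMC and mock groups of both genotypes of Exp 2, while 6 of 10 in CMC and 9 of 10 in mock libraries did so in Exp 1. In the edgeR fit of the mock libraries of Exp 2, the members' median biological coefficient of variation was 0.60, against 0.069 for all genes tested. A test of genotype therefore had little precision for most members, with SEs between 0.46 and 0.76 on the log2 scale.

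**Figure D2:**
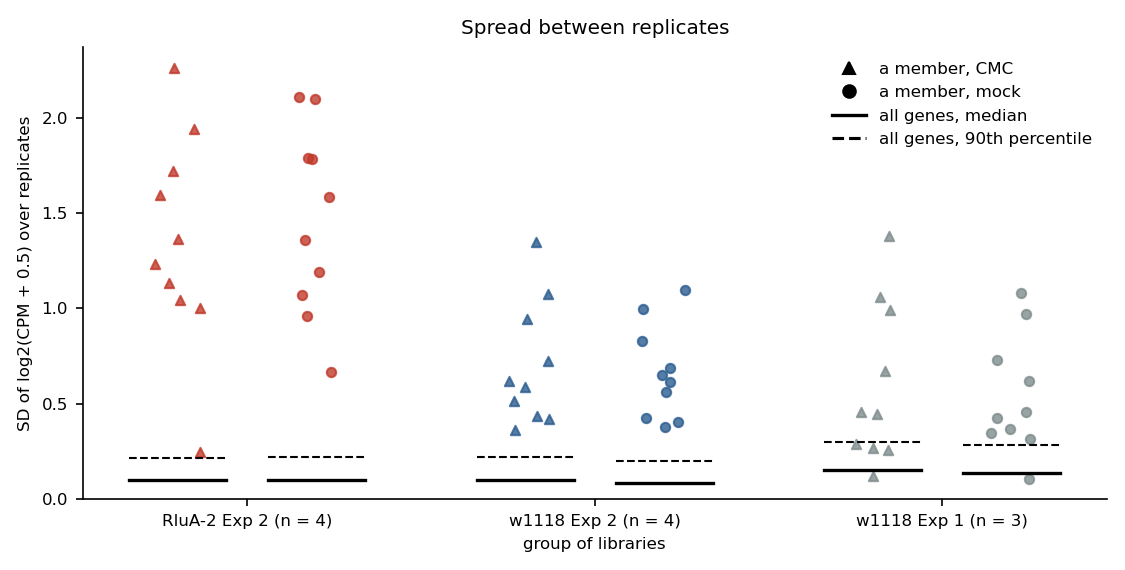
SD of log2(CPM + 0.5) over the replicates of a group for each of the 10 genes (triangles CMC, circles mock), with the median of all genes as a solid and their 90th percentile as a dashed line. Most members lie above the dashed line in every group, and the median over the members is highest in RluA-2, at 1.47 in mock libraries.

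The comparison of RluA-2 with w1118 asked which transcripts change when the synthase gene is deleted. In the 4 against 4 mock libraries of Exp 2, 2 of the 10 members fell and none rose (edgeR's quasi-likelihood test, Benjamini-Hochberg adjusted p under 0.05 over all genes). Of all 10161 genes tested, 12.6% fell and 11.1% rose, a total of 23.7% called. The members' median log2 fold change was 0.11, against 0.00 over all genes, with 6 positive and 4 negative values. In the CMC libraries 3 of 10 members fell and none rose, where 12.3% of the 10050 genes tested fell and 8.80% rose. There the members' median log2 fold change was 0.06, against -0.01 over all genes.

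AttD, an attacin that lies apart from the others on 3R, had the largest difference. It had 22, 1, 1 and 5 counts in the RluA-2 mock libraries, or 1.00, 0.08, 0.05 and 0.25 CPM. The w1118 mock libraries of Exp 2 had 48, 45, 20 and 72 counts, or 1.56, 2.35, 1.66 and 3.27 CPM. The genotypes did not overlap in either treatment, as for 17.7% of all 9551 genes of at least 1 mean CPM that were lower without overlap in mock libraries and 14.6% of 9471 in CMC libraries. AttD fell by 2.48 ± 0.53 on the log2 scale in the mock libraries (SE, edgeR adjusted p = 0.00495). In the CMC libraries it had 7, 2, 2 and 4 counts in RluA-2, against 41, 50, 31 and 84 in w1118, and fell by 3.82 ± 0.39 (SE, edgeR adjusted p = 9.59e-06).

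CecA1, whose product lyses bacterial membranes, fell in both kinds of library. It stood at 2.41, 0.66, 0.14 and 0.31 CPM in RluA-2 mock libraries, from 53, 8, 3 and 6 counts, and at 1.82, 5.44, 5.40 and 5.73 CPM in w1118 mock libraries of Exp 2. The only overlap was that of RluA-2 replicate 1 with w1118 replicate 1. Its log2 fold change was -2.23 ± 0.59 in the mock libraries (SE, edgeR adjusted p = 0.0160) and -2.35 ± 0.59 in the CMC libraries (SE, edgeR adjusted p = 0.0118). The call was lost with the replicate number as a block in mock libraries (edgeR adjusted p = 0.0528) and with DESeq2 in CMC libraries (DESeq2 adjusted p = 0.101).

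AttB stood near the threshold. It had 13.5, 5.83, 1.83 and 2.29 CPM in RluA-2 mock libraries, against 10.4, 15.6, 16.04 and 21.9 CPM in w1118 mock libraries of Exp 2, and only RluA-2 replicate 1 reached into the w1118 range. The log2 fold change was -1.37 ± 0.47 in mock libraries (SE, edgeR adjusted p = 0.0547) and -1.14 ± 0.38 in CMC libraries, where it passed (SE, edgeR adjusted p = 0.04998). The call in the CMC libraries was lost when any one library other than RluA-2 replicate 1 was left out, with adjusted p-values of 0.0506 to 0.135 in edgeR.

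The other 7 members were not called in either treatment. Their log2 fold changes in the mock libraries lay between -0.52 ± 0.46 for Drs and 0.43 ± 0.76 for DptA (SE), with edgeR adjusted p-values of 0.482 to 0.971. Differences of several fold either way lie within the errors of most of them, so a common level of these genes in the 2 genotypes is not shown. For Drs, the target of Toll, the CMC libraries gave the same log2 fold change of -0.52, with an SE of 0.43.

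RluA-2 replicate 1 decided the size of most of these values. Without it, all 10 log2 fold changes were negative in both treatments, with a median of -1.13 in mock and -1.03 in CMC libraries, against 0.01 and -0.01 over all genes. AttD, CecA1, AttB and Drs, 4 of 10, were then called lower in each treatment, where 11.7% of genes in mock and 11.1% in CMC libraries were called lower. In the mock libraries Drs then stood at -1.32 (edgeR adjusted p = 0.0147), AttB at -2.33, CecA1 at -3.70 and AttD at -3.96 on the log2 scale. DptA, DptB, AttA, AttC, Mtk and Dro then lay between -0.71 and -1.13 and were not called. No label sets this replicate apart from the other 3, and which of these descriptions holds for the genotype cannot be told from 4 samples. Leaving out w1118 replicate 4, the highest control, moved the members' median to 0.47 in mock and 0.53 in CMC libraries and left the calls at AttD and CecA1.

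**Figure D3:**
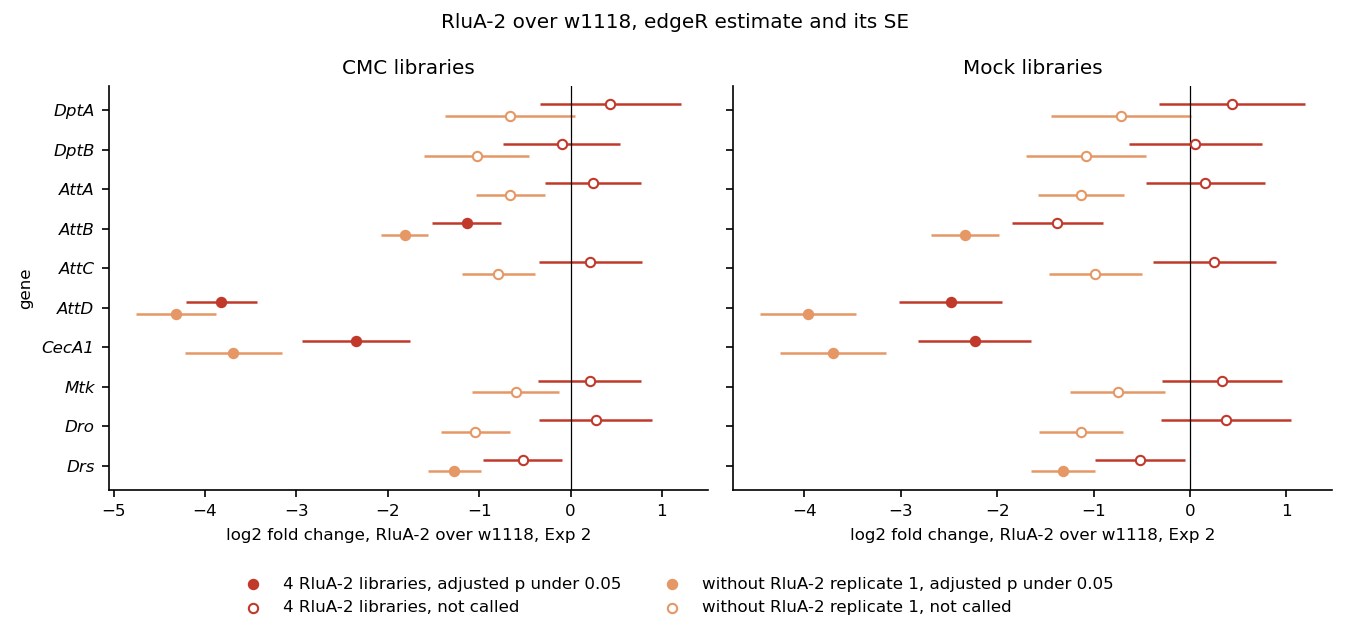
log2 fold change of RluA-2 over w1118 in Exp 2 for the 10 genes with its SE, CMC libraries on the left and mock libraries on the right, red with all libraries and orange without RluA-2 replicate 1, filled where the adjusted p was under 0.05. With all libraries 7 of the genes in CMC and 8 in mock libraries are open circles, and every orange circle lies left of 0.

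The neighbouring copies AttA and AttB differed in their balance between the genotypes, a contrast chosen after the values were seen. The ratio of AttB to AttA counts was 0.70, 0.85, 1.36 and 1.25 in RluA-2 mock libraries, against 2.26, 2.34, 2.19 and 2.41 in w1118 mock libraries of Exp 2 and 2.91, 3.22 and 2.36 in those of Exp 1. In Exp 2, no RluA-2 ratio reached the w1118 range in mock or, at 0.99 to 2.37 against 2.75 to 3.30, in CMC libraries. The CMC libraries of Exp 1 lay at 2.05 to 4.29, so that the highest RluA-2 CMC ratio overlapped them. The mean log2 ratio differed by -1.20 in mock and -1.15 in CMC libraries, given with no test because the contrast was picked for its values. The ratios of DptB to DptA and of AttA to Dro overlapped between the genotypes. Whether the share of read pairs that map to one copy only differs between the genotypes was not tested.

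Between the experiments, w1118 heads of Exp 2 and Exp 1 differed in few members. Of the 10, AttD fell and none rose in the mock libraries of Exp 2 against those of Exp 1, where 15.4% of 10253 genes fell and 17.5% rose. AttD stood at 1.56, 2.35, 1.66 and 3.27 CPM in Exp 2 and at 5.25, 4.86 and 2.72 CPM in Exp 1, with Exp 2 replicate 4 above Exp 1 replicate 3. It fell by 1.00 ± 0.30 on the log2 scale (SE, edgeR adjusted p = 0.0274), and its log2 fold change in the CMC libraries was -1.42 (edgeR adjusted p = 0.00275). Both w1118 experiments thus held AttD above the RluA-2 libraries, of which the highest had 1.00 CPM.

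In Exp 1, AttA, AttB and CecA1 were set apart by replicate 3 among the mock libraries and by replicate 2 among the CMC libraries. In CMC replicate 2 they stood at 8.99, 22.4 and 10.1 CPM. AttA stood at 4.59, 6.69, 7.31 and 9.09 CPM in the mock libraries of Exp 2, against 1.70, 1.75 and 7.65 CPM in mock replicates 1 to 3 of Exp 1. Without Exp 1 replicate 3, AttA at 1.94 and AttB at 1.54 on the log2 scale were called higher in Exp 2 (edgeR adjusted p = 0.00258 and 0.00576), beside 13.5% of all genes. With all libraries they had 0.93 and 0.75 and were not called. The call on AttD was lost without Exp 1 replicate 1 or 2 and without Exp 2 replicate 1, 2 or 3, with edgeR adjusted p-values of 0.0558 to 0.0823. Without Exp 2 replicate 4 DptA was called lower in Exp 2, at -1.25 on the log2 scale.

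With the RNA sample as a block over all 11 samples, DptB fell by 0.14 ± 0.056 on the log2 scale in CMC against mock libraries (SE, edgeR adjusted p = 0.0466), and no other member was called, where 24.5% of 10743 genes fell and 22.7% rose. With replicates 2 and 3 of Exp 1 crossed, an alternative chosen after seeing the data, 4 members were called, AttB, AttC and AttD higher at 0.18, 0.11 and 0.41 and DptB lower at -0.14, where 24.8% of all genes rose and 26.4% fell. Without both libraries of those replicates DptB at -0.18 and AttA at -0.22 were called lower. CecA1 stood at 2.00, 10.1 and 1.25 CPM in CMC and at 1.80, 1.53 and 4.65 CPM in mock replicates 1 to 3 of Exp 1, high in CMC replicate 2 and mock replicate 3. The test of whether the CMC effect differed between RluA-2 and w1118 called none of the 10547 genes, or 0%, and none of the members. Before adjustment, AttB at 0.30 and AttD at -1.17 on the log2 scale were the 2 members under 0.05 in that edgeR fit.

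Whether a pseudouridine call fell on a member turned on the variance used in the test. A position was called where its share of reads ending there, the termination ratio, was higher in the CMC than in the mock library of a pair by a one-sided test of 2 proportions over reads with an adjusted p under 0.05. With the inverse of the mock coverage in the variance, none of 1867 tests at positions in 9 members over the 11 pairs passed, where 0.444% of all 6316100 tests did and 0.220 to 1.13% within a pair. The mock term of that variance does not shrink with the share of reads ending at a position. Its error is thus large at low mock coverage, and at the members' coverage it could call little. With the pooled variance, the form nearest to the methods of the study, 503 of the 1867, or 26.9%, passed. This is near the 28.1% of all tests, which ran from 6.91 to 51.1% within a pair. Unadjusted and with the first variance, 19 had a p under 0.05, 12 of them in Drs, with a smallest p of 0.00576. Positions in Mtk were not analysed here.

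Coverage of the members was low. In CMC libraries it reached at most 840 reads at a position of Drs, 391 in Dro and 29 in AttD. Drs offered 29 to 141 positions to test in a pair, AttC 1 to 126 and DptB 0 to 83, and RluA-2 replicate 3, the lowest sample, offered 34, 1 and 0. With the pooled variance, up to 52 calls fell on Drs in 1 pair. No position was then called in all 7 w1118 pairs, and 10 were called in at least 4. Without replicates 2 and 3 of Exp 1, an alternative chosen after seeing the data, the first variance gave 0 calls and the pooled variance 411 of 1599 tests, or 25.7%, with 4 positions called in at least 4 of the 5 remaining w1118 pairs. Absence of pseudouridine on these transcripts is not shown at this depth.

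The files name genes by identifier only, so other immune genes were measured by the CMC terminations in their RefSeq spans, scaled to the summed gene counts as CPM are and called termination CPM here. Over 9 members the median ratio of this measure to the gene count was 0.86. In RluA-2 against w1118 it called 3 members lower, again AttD, CecA1 and AttB, where 11.8% of 10191 spans fell and 8.86% rose. Of 24 measured genes of 30 other induced peptides, 10 rose and 1 fell in RluA-2 against w1118 of Exp 2, and 13 were not called. Their median log2 fold change was 0.22, against 0.00 over all spans. The comparison rests on the same flies as that of the members, and the lists were chosen with earlier results known.

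Drsl4, a gene of the drosomycin family, stood at 104, 115, 82.7 and 103 termination CPM in RluA-2, against 10.4, 7.91, 11.7 and 11.8 in w1118 of Exp 2. It rose by 3.30 ± 0.12 on the log2 scale (SE, edgeR adjusted p = 3.29e-11). Drsl5 rose by 1.64 ± 0.092, and BomS6, one of the short peptides called bomanins that Toll induces, by 1.62 ± 0.10 (SE, edgeR adjusted p = 6.83e-09 and 2.66e-08). Defensin (Def), a peptide against Gram-positive bacteria, fell by 2.67 ± 0.27 on the log2 scale (SE, edgeR adjusted p = 4.13e-06), at 5.95, 1.40, 2.16 and 4.59 termination CPM in RluA-2 and 17.2, 22.01, 23.5 and 27.7 in w1118. Among the RluA-2 samples, replicate 2 was highest for Drsl4. Replicate 1 was highest for Def, at 5.95 beside 4.59 termination CPM in replicate 4.

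Of the relatives of CecA1, CecA2 stood at 3.44, 0.42, 0.10 and 0.34 termination CPM in RluA-2 replicates 1 to 4, against 1.44 to 4.17 in w1118 of Exp 2. CecC, at 3.54, 0.98, 0.25 and 0.96 in RluA-2, overlapped the 0.89 to 3.03 of w1118. CecB was under the filter on low counts. CecA2 had a log2 fold change of -1.67 ± 0.59 (SE, edgeR adjusted p = 0.0614) and was called without RluA-2 replicate 1, at -3.51 (edgeR adjusted p = 3.55e-05). Without that replicate 9 of the 24 other peptide genes rose and 7 fell, where 7.81% of 10279 spans rose and 10.9% fell, the 6 added being CecA2, CecC, BomS1, BomBc1, IBIN and PGRP-SB1. For the spans this setting was chosen after the values were seen. RluA-2 replicate 1 was the highest RluA-2 sample for all 6, so these added calls follow in part from the choice. The cecropin genes share sequence, so that reads common to them cannot be assigned to one.

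Of 11 measured genes of 14 of the Imd cascade itself, 1 rose and none fell, with a median of 0.06, where 8.86% of all spans rose and 11.8% fell. PGRP-LA, which encodes a receptor-like peptidoglycan recognition protein, rose by 0.33 ± 0.051 on the log2 scale (SE, edgeR adjusted p = 0.000258). Rel, the NF-kappaB factor of the pathway, and the adaptor gene Fadd were not analysed here. Of 8 measured Imd inhibitors of 10, 2 fell and 1 rose. PGRP-LB, an amidase that degrades peptidoglycan, and PGRP-LF, which blocks the receptor, fell, with log2 fold changes of -0.73 ± 0.12 and -0.48 ± 0.092, and dnr1 rose by 0.42 ± 0.071 (SE, edgeR adjusted p = 0.000359, 0.00138 and 0.000475).

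Of 17 Toll pathway genes, 4 fell, 1 rose and 12 were not called, with a median of -0.02, where 11.8% of all spans fell and 8.86% rose. The fall of grass, which encodes a protease upstream of the Toll ligand, was not called without RluA-2 replicate 1 (edgeR adjusted p = 0.114). The sensors GNBP1 and PGRP-SA and the protease SPE, which cleaves the Toll ligand, fell, with log2 fold changes of -0.40 ± 0.10, -0.34 ± 0.076 and -0.32 ± 0.086, and GNBP3, a sensor of fungal glucan, rose by 0.29 ± 0.062 (SE, edgeR adjusted p = 0.0105, 0.00472, 0.0162 and 0.00298). Of 9 measured genes of 10 of the JAK/STAT pathway and the humoral stress response, 2 rose and 2 fell. The stress peptides TotC and TotA fell, with log2 fold changes of -1.23 ± 0.14 and -0.71 ± 0.14, while Stat92E, the transcription factor of the pathway, and TotX rose by 0.57 ± 0.067 and 0.50 ± 0.15 (SE, edgeR adjusted p = 1.02e-05, 0.00177, 1.62e-05 and 0.0255).

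**Figure D4:**
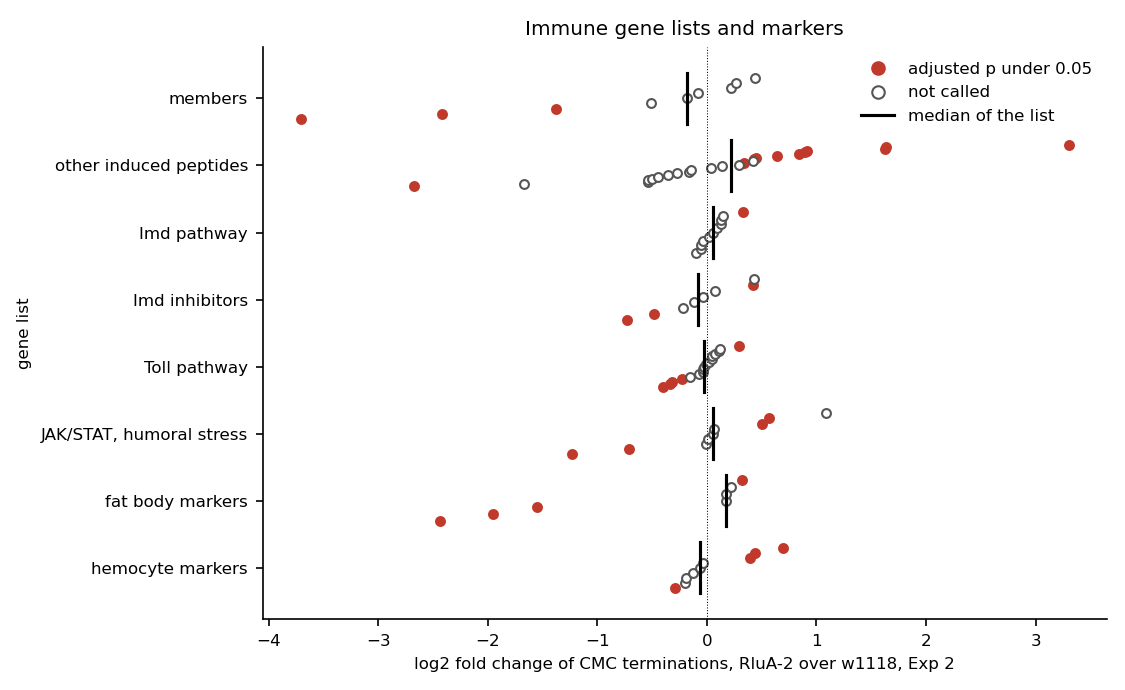
log2 fold change of CMC terminations, RluA-2 over w1118 of Exp 2, for each measured gene of 8 lists, filled where the adjusted p was under 0.05, with a black line at the median of each list. The members reach from -3.70 to 0.44, the other induced peptides from -2.67 to 3.30, and the genes of the Imd pathway, its inhibitors apart, and of the Toll pathway stay within 0.40 of 0.

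The summed level of 7 fat body markers was 58656 termination CPM in RluA-2 replicate 1, the lowest of a range of 58656 to 73505 over the RluA-2 samples, against 55217 to 62632 in w1118 of Exp 2 and 49674 to 59332 in Exp 1. Most of this sum came from the yolk protein genes Yp1, Yp2 and Yp3, at 22714, 15661 and 16451 termination CPM in RluA-2 replicate 1. Lsp2, at 686 there, and Fbp1 and Fbp2 added little to it. In Exp 1 the sum of the fat body markers was highest in CMC replicate 2, which also had the highest members. Fbp1 stood at 3.38, 0.56, 0.40 and 2.06 and Fbp2 at 1.23, 0.51, 0.35 and 0.96 termination CPM in RluA-2 replicates 1 to 4, both highest in the sample with the highest members, while in w1118 of Exp 2 both were lowest in replicate 4, at 5.47 and 1.51. In RluA-2 replicate 1, 2 of 7 fat body and 3 of 10 hemocyte markers were at their highest among the RluA-2 samples. In w1118 replicate 4 of Exp 2, 0 of 7 and 1 of 10 were so among w1118 of Exp 2. In CMC replicate 2 of Exp 1, 5 of 7 and 4 of 10 were so among Exp 1. Within the list, Fbp1, Fbp2 and Lsp2 fell, with log2 fold changes of -2.44 ± 0.40, -1.95 ± 0.34 and -1.55 ± 0.12, and apolpp rose by 0.32 ± 0.096 (SE, edgeR adjusted p = 0.000383, 0.000684, 2.22e-07 and 0.0288). Hemocyte markers summed to 414 to 446 termination CPM in RluA-2, with 445 in replicate 1, and 426 to 460 in w1118 of Exp 2. Of 9 measured, NimC1, srp and lz rose, by 0.69, 0.44 and 0.40, and PPO1 fell by 0.29 on the log2 scale. Beside these and the marker lists below, 11.8% of all spans fell and 8.86% rose. The part of fat body cells and hemocytes in the members' values was not tested.

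Midgut enzyme markers, as a sum, were highest in the sample with the highest members of each group. They summed to 62.2, 37.7, 38.9 and 36.6 termination CPM in RluA-2 replicates 1 to 4, to 28.4, 26.3, 24.9 and 44.2 in w1118 of Exp 2, and to 27.5, 39.5 and 21.0 in CMC libraries of Exp 1. RluA-2 replicate 1, w1118 replicate 4 of Exp 2 and CMC replicate 2 of Exp 1 also had the highest summed CPM of the members. Only 3 of the 11 genes were measured, the amylases Amy-p and Amy-d and the maltase Mal-A1, while 2 had no listed position and 6 were low. Taken singly, 2 of 3 were highest in RluA-2 replicate 1, where Mal-A1 was not, being highest in replicate 4 at 7.61 termination CPM. In w1118 replicate 4 of Exp 2 and CMC replicate 2 of Exp 1, 3 of 3 were highest. Amy-d rose by 0.73 ± 0.18 on the log2 scale in RluA-2 (SE, edgeR adjusted p = 0.00863). Their part in the members' values was not tested. The 4 neuron markers included no call. Their sum was also highest among the RluA-2 samples in replicate 1, at 2246 termination CPM. In w1118 of Exp 2 and in Exp 1 that sum was not highest in the sample with the highest members. Rh3 and Rh4 of the 6 photoreceptor markers fell, with log2 fold changes of -0.47 and -0.37. Of 3 measured glial markers, moody at -0.21 fell and repo at 0.17 rose. The calls on apolpp, PPO1 and repo were lost without RluA-2 replicate 1.

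Among themselves the members went up and down together within groups. Over the 45 pairs of members and the 11 mock libraries, centred within the 3 groups, Pearson's r of log2(CPM + 0.5) had a median of 0.76 and ran from 0.35 to 0.99. In CMC libraries the median was 0.75, and the lowest value was that of AttD with CecA1, r = -0.03. These are descriptions of 11 samples in which RluA-2 replicates 1 and 3 lie at the ends. In CMC libraries AttC lay closest to the members' mean pattern, of which each member is a part, at r = 0.98. AttD lay farthest, at 0.47, with 2 to 7 counts in each RluA-2 CMC library. With the CMC and mock libraries of each RNA sample averaged, the lowest r of a member was 0.71, or 0.63 with replicates 2 and 3 of Exp 1 crossed.

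By terminations in gene spans, the genes most like that mean pattern outside the 10 were BaraA1, IBIN, PGRP-SB1, CG31441 and Mtkl, in this order. Their r over the 11 CMC libraries, centred within groups, was 0.91, 0.90, 0.90, 0.90 and 0.88 among 9654 gene spans, whose median r was 0.03. On the gene counts of 10142 genes, which carry identifiers only, the highest r of a gene outside the 10 was 0.96, or 0.97 with replicates 2 and 3 of Exp 1 crossed, and 5 such genes, or 3 with the numbers crossed, lay above 0.9. BaraA1 encodes an antifungal peptide precursor, IBIN a peptide induced by infection and PGRP-SB1 an amidase that degrades peptidoglycan. IBIN stood at 8.92, 1.17, 0.050 and 0.19 termination CPM in RluA-2 replicates 1 to 4, against 4.65, 1.51, 2.61 and 5.22 in w1118 of Exp 2. PGRP-SB1 stood at 32.5, 22.5, 9.81 and 19.3 in RluA-2 and at 32.7, 25.8, 28.0 and 37.6 in w1118. In both, RluA-2 replicate 1 was highest and replicate 3 lowest among the RluA-2 samples. Both were picked for their likeness to the members in these same libraries, so this order restates the choice. CG31441 and Mtkl had few terminations, at 4.47 to 5.90 and 0.55 to 2.77 termination CPM in Exp 2.

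**Figure D5:**
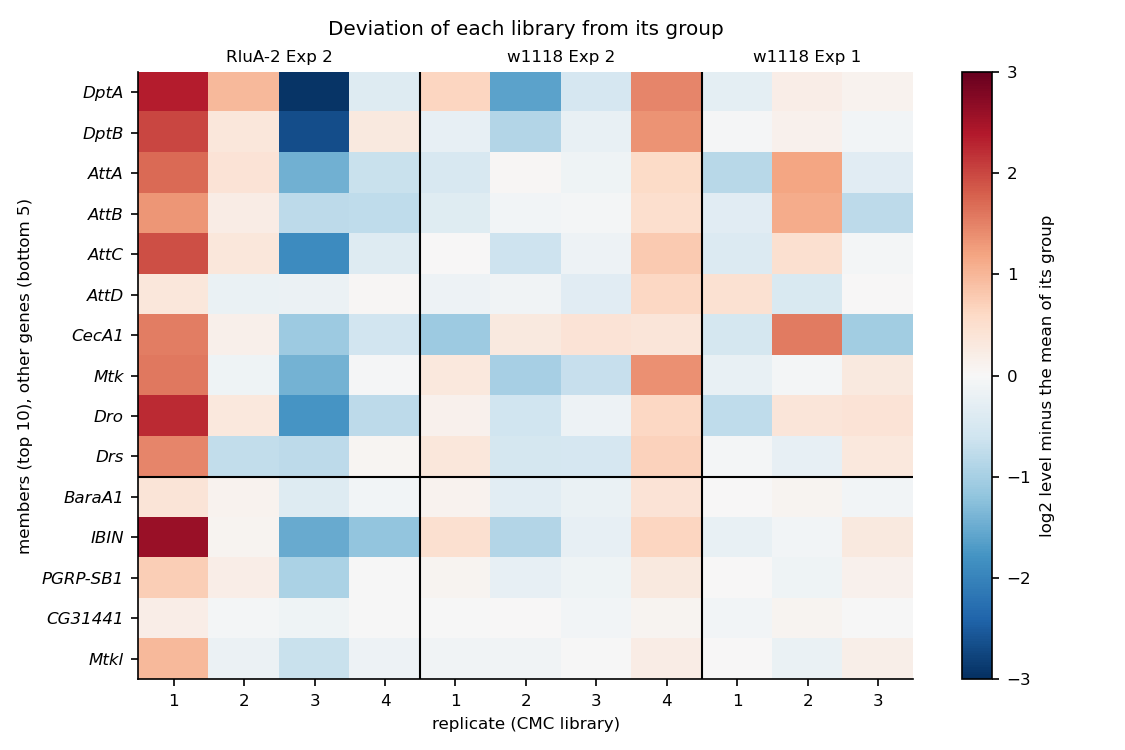
Deviation of each CMC library from the mean of its group on the log2 scale (CPM + 0.5 for the 10 members above the line, termination CPM + 0.5 for the 5 most similar other genes below it), with RluA-2 and w1118 of Exp 2 and w1118 of Exp 1 from left to right. RluA-2 replicate 1 is red and replicate 3 blue for nearly all members, and IBIN has the same colours.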

How the data were processed

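The authors trimmed reads with Trimmomatic 0.33, mapped them to rRNA and spike-in with Bowtie2 and the rest to the genome with STAR 2.6.1a, and counted them with featureCounts 2.0.0. The deposited gene values are raw counts, 12035142 to 30701799 per library. The deposited termination files hold, per position, a termination count stored with 1 added, the coverage (a signal) and their quotient (a fraction), listed where the CMC library has a termination. Per the study's methods, only concordant pairs with a single mapping place, sense to 1 gene, were counted, which leaves out shared sequence of AttA and AttB.

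Samples were grouped by their labels. Whether replicates came from separate cultures is not stated, so p-values measure the spread between these RNA samples. The members and lists were chosen with earlier results of these data known. Gene counts were tested with edgeR 4.0.16 (R 4.3.3) by quasi-likelihood after TMM normalization and filterByExpr, with Benjamini-Hochberg adjustment over all genes. DESeq2 1.42.0 and other settings were alternatives. CPM used each library's summed gene counts, and log2 values had 0.5 added. Positions needed 5 terminating and 5 continuing CMC reads for the one-sided test of 2 proportions, adjusted within a pair. No count column was left unused.

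Lists and the most similar genes were planned on gene counts. Since these carry identifiers only, terminations in RefSeq spans (release 6, at least 20 in total, strand with the most) were used instead, and overlapping genes are not separated. Named genes were all members, up to 4 called genes per list with the largest change, and the 5 most similar genes. Others named, such as those called only without RluA-2 replicate 1, were chosen after their values were seen. Fits and the position test were tested on simulated data. The span fit was simulated with less spread than the members had, and the position test at higher coverage than theirs. How both perform on the members was not tested. In 9 of 11 RNA samples the CMC and mock libraries of one number correlated at 0.35 to 0.69 over 9017 genes, and the labels give each RNA sample as split in 2, so the RNA sample was the block.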

Additional observations from a re-analysis of the deposited data

Results flagged for a closer look

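CecA1 in w1118 replicate 1 of Exp 2 lay far below the other 3 replicates in both libraries of that RNA sample. It stood at 1.94 CPM in the CMC library, where the other replicates had 5.87 to 6.39 CPM, and at 1.82 CPM in the mock library, where they had 5.40 to 5.73 CPM. Its gap to the nearest replicate was 0.924 of the group's range in CMC and 0.946 in mock libraries, beyond Dixon's 95% value of 0.829 for 4 samples. Without this replicate the log2 fold change of CecA1, RluA-2 over w1118, was -2.61 in CMC and -2.54 in mock libraries. These were 2 of 40 groups examined, and chance alone gives about 1 in 20.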

How the results depend on the processing

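Without one library at a time, 2 to 4 of the 10 members were called in RluA-2 against w1118 in mock and 2 to 4 in CMC libraries, and 0 to 3 in Exp 2 against Exp 1. The log2 fold changes that changed sign ranged, RluA-2 over w1118 in mock libraries, from -0.71 to 1.08 for DptA, -1.08 to 0.64 for DptB, -1.13 to 0.52 for AttA, -0.98 to 0.63 for AttC, -0.75 to 0.96 for Mtk and -1.13 to 0.75 for Dro. In CMC libraries they ranged from -0.66 to 1.14 for DptA, -1.03 to 0.61 for DptB, -0.66 to 0.60 for AttA, -0.79 to 0.58 for AttC, -0.60 to 0.90 for Mtk and -1.04 to 0.64 for Dro. In Exp 2 over Exp 1 they ranged from -0.25 to 0.54 for DptB, -0.41 to 0.15 for AttC, -0.44 to 0.44 for Mtk and -0.45 to 0.041 for Dro. Of 230 such values, 183 kept their direction and their side of the threshold. The directions of AttB, AttD, CecA1 and Drs did not change in RluA-2 against w1118.

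RluA-2 and w1118 samples of one number share no origin in the labels, and their deviations correlated at r = -0.02 to 0.30 over genes. With this number as a replicate block, 1 member (AttD) was called in mock libraries, where CecA1 was lost (edgeR adjusted p = 0.0528), and 2 (AttD and CecA1) in CMC libraries, where AttB was lost (edgeR adjusted p = 0.0545), and the log2 fold changes turned to -0.28 for DptB, -0.25 for AttA, -0.22 for AttC and -0.10 for Dro in mock and to -0.026 for AttA, -0.17 for AttC and -0.22 for Dro in CMC libraries. In Exp 2 over Exp 1 the block gave 2 calls, DptA and AttD, with DptB at -0.27 and Mtk at -0.48, and the CMC libraries gave Mtk -0.10. DESeq2 called 1 member, AttD, in the CMC libraries of RluA-2 against w1118.

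For CMC against mock, no replicate block gave 0 called members, the size factors of DESeq2 0, DESeq2 0, w1118 Exp 1 alone 0, RluA-2 alone 2 (AttB higher, DptB lower), crossed numbers 4 and leaving out replicates 2 and 3 of Exp 1 gave 2. Log2 fold changes turned for Mtk (-0.0048) and Drs (-0.0029) without the block, for AttA in Exp 1 (0.30), for Mtk (-0.035) and Drs (-0.034) in w1118 of Exp 2, for DptA (-0.0045), Mtk (-0.062), Dro (-0.018) and Drs (-0.00049) in RluA-2, and for Drs (-0.025) without both replicates. Of all genes, 5065 were called with the block, 2296 without it, 2472 in w1118 of Exp 1, 3203 in w1118 of Exp 2 and 3303 in RluA-2. AttD could not be fitted in RluA-2 alone, where it was under the filter on low counts. The pooled variance gave 503 position calls on members in place of 0, and 411 in place of 0 without replicates 2 and 3 of Exp 1. Apart from what each setting leaves out, the cause was not tested. AttD in RluA-2 rested on 1 to 22 counts per library, and Mtk had no position to test.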
